A study of Caenorhabditis elegans with 6 samples.

Results

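C48E7.6 and cpg-19 are 2 Caenorhabditis elegans genes tied to chondroitin proteoglycans, chosen by name from 7477 genes with a named probe on the arrays because their ratios ran in opposite directions, most of all in 128Q over 19Q cells. The study's annotation gives C48E7.6 the human homolog CSPG4, a chondroitin sulfate proteoglycan, and cpg-19 (sequence name C06G1.2) belongs to the worm gene class named for chondroitin proteoglycans. In the WBcel235 gene table they lie on chromosome I and chromosome X, and each was measured by 1 probe. Their ratios in both comparisons were used to choose them, so these values are given below as a description, with no test.

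A proteoglycan is a protein that carries long sugar chains, and chondroitin is such a chain, built on serines of a core protein as a linker sugar followed by many copies of a disaccharide. In C. elegans, chondroitin is needed for the early embryo to divide and for the vulva to take its shape, and the founding members of the cpg class are proteins of the inner layers of the eggshell. In mammals CSPG4 is a protein that spans the cell membrane, known from progenitor cells of the brain and from cells that wrap small vessels. Chondroitin sulfate proteoglycans of the brain matrix hold back growing axons. The sources used here do not say what C48E7.6 and cpg-19 do in touch receptor neurons.

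The cells came from embryos of 3 integrated transgenic strains and differed in the transgene read from the mec-3 promoter, a promoter active in touch receptor neurons. The first strain made the N-terminal part of human huntingtin with an expanded polyglutamine (128Q) fused to GFP, the second the same fusion with a normal polyglutamine (19Q), and the control GFP only. In every strain the embryos were taken apart with chitinase and proteases, and the cells were cultured overnight and sorted by GFP, so the GFP-positive gate is also the product of each transgene, and RNA of 128Q cells (Cy5) was set against RNA of 19Q cells (Cy3), and RNA of 19Q cells (Cy5) against RNA of GFP-only cells (Cy3), on 2-colour arrays with 3 biological replicates each. The platform annotation used here names 7718 of 22562 probes, and 0 of 14 touch receptor markers and 0 of the markers listed for muscle, hypodermis, intestine, germline and other neurons are among the named. Touch receptor identity, and whether markers of any cell type moved with either comparison, were therefore not analysed here. RNA of sorted cells was pooled, so fewer cells that express a gene and less RNA per cell cannot be told apart.

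The deposited values are log ratios with no stated base, given here in deposited units and never as folds. A positive value stands for more RNA in the cells named first. They are ratios between 2 cell populations and not levels. The SD over probes is 1.00, 0.783 and 0.810 for the 3 sets of 128Q over 19Q and 1.00 for each set of 19Q over GFP only, so 1 unit does not stand for the same change in every set. A group of 246 unnamed, evenly spaced low probes was set apart by value. Each was under -3 in replicate 1 of both comparisons, with another such probe 7 identifiers away. Their medians of -5.57 in replicate 1 of 128Q over 19Q and -7.07 in replicate 1 of 19Q over GFP only follow from that choice. In 19Q over GFP only their median was also low in replicate 2, at -5.91, but 0.32 in replicate 3. In the other replicates of 128Q over 19Q it was 0.16 and 0.79. Without the low probes the SDs of 128Q over 19Q were 0.814, 0.786 and 0.809. Those of 19Q over GFP only were 0.674, 0.786 and 1.003, so its 3 sets did not share a scale either. The 3 sets of 128Q over 19Q had pairwise r between 0.540 and 0.677 across probes, and between 0.681 and 0.762 without the low probes. Probes do not replicate each other. In 19Q over GFP only, r was 0.739 between replicates 1 and 2 and 0.525 without the low probes, below all 3 pairs of 128Q over 19Q. Replicate 3 stood apart from both (r = 0.114 and 0.0118, and 0.210 and 0.0446 without the low probes). Values of 19Q over GFP only are therefore also given without replicate 3.

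C48E7.6 was far above 0 in all 3 replicates of 128Q over 19Q. Its log ratios were 4.56, 2.90 and 4.20 in replicates 1 to 3, a mean of 3.89 ± 0.87 (SD, n = 3). In replicate 1 only 3 of 22108 features with a value were higher, and in replicate 3 only 8 of 22196. Replicate 2 was the lowest, with 153 of 22132 features above C48E7.6. By the mean, 5 of 22033 features were higher and 0 of them were named, so C48E7.6 was the named gene with the highest mean. The SD between its replicates was larger than that of 94.7% of features, against a median SD of 0.29 over all features. When each set was centred on its median and scaled to the same median absolute value, the 3 log ratios became 4.45, 3.73 and 3.99, with a mean of 4.06 and an SD of 0.36. Replicate 2 thus stayed the lowest and the replicates lay closer together on that scale.

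cpg-19 was far below 0 in the same 3 replicates, with -2.95, -2.84 and -3.71 in replicates 1 to 3 and a mean of -3.17 ± 0.47 (SD, n = 3). In replicate 3 only 4 of 22196 features were lower, and in replicate 2 only 27 of 22132. In replicate 1 there were 283 lower features of 22108, of which all but 37 were the evenly spaced low probes. By the mean, 7 of 22033 features were lower, 4 of them named. After centring and scaling the log ratios were -3.0, -3.68 and -3.58, with a mean of -3.42 and an SD of 0.37. All 3 sets therefore gave cpg-19 less RNA in 128Q cells than in 19Q cells, and C48E7.6 more.

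**Figure D1:**
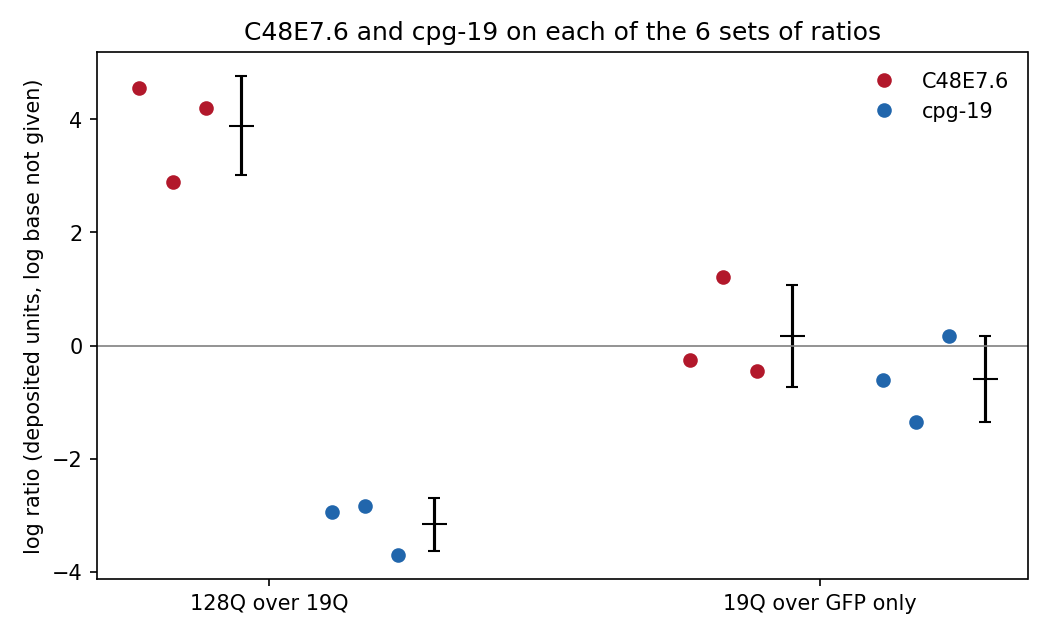
Log ratios (y axis, deposited units) of C48E7.6 (red) and cpg-19 (blue) in 128Q over 19Q (left) and 19Q over GFP only (right). Points are replicates 1 to 3 from left to right and black bars the mean ± SD. The 3 points of C48E7.6 lie between 2.90 and 4.56 and those of cpg-19 between -3.71 and -2.84 in 128Q over 19Q, while both genes have points on either side of 0 in 19Q over GFP only.

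Few features matched either gene in every replicate, which the choice of both genes for their ratios favours. At or above 2.90, the lowest of the C48E7.6 replicates, in all 3 sets of 128Q over 19Q were 25 of 22033 features, C48E7.6 included, and 10 of them are named. At or below -2.84, the highest of the cpg-19 replicates, were 7 features, cpg-19 included, and 4 of them are named. The other 3, named after their values were seen, are F20B10.3, F30H5.3 and F40E10.5.

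In 19Q over GFP only neither gene held one direction. C48E7.6 had log ratios of -0.25, 1.21 and -0.45 in replicates 1 to 3, a mean of 0.17 ± 0.91 (SD, n = 3), so that replicate 2 alone was above 0. Without replicate 3 its mean was 0.48, and without replicate 2 it was -0.35 and so on the other side of 0. The log ratios of cpg-19 were -0.60, -1.36 and 0.17, with a mean of -0.60 ± 0.77 (SD, n = 3) and 2 of 3 replicates below 0. Without replicate 3, the one above 0, the mean of cpg-19 was -0.98. On replicate 2, 3.63% of features were higher than C48E7.6 and 5.87% were lower than cpg-19. On replicate 1 and on replicate 3, 74.9% and 74.3% of features were higher than C48E7.6, which put the gene in the lower part of both sets. The median of all 21897 features compared was 0.09 in 19Q over GFP only and that of all 22033 was 0.05 in 128Q over 19Q.

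The distance between both genes restates the ratios that chose them. Its size and the opposite signs in 128Q over 19Q follow from that choice and are no further support. C48E7.6 minus cpg-19 was 7.51, 5.74 and 7.91 in replicates 1 to 3 of 128Q over 19Q, with a mean of 7.05 ± 1.16 (SD, n = 3). In 19Q over GFP only it was 0.35, 2.57 and -0.63, with a mean of 0.76 ± 1.64 (SD, n = 3). Opposite signs for both genes were seen in 3 of 3 replicates of the first comparison. In the second they were seen in replicates 2 and 3 but ran opposite ways, with C48E7.6 the higher gene in replicate 2 and cpg-19 in replicate 3.

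RNA of 19Q cells is the second member of one ratio and the first of the other, and no source used here says whether the same extracts served both. With the means added, the indirect log ratio of 128Q over GFP-only cells was 4.06 for C48E7.6 and -3.76 for cpg-19. All 9 sums of 1 replicate from each comparison lay between 2.45 and 5.77 for C48E7.6 and between -5.07 and -2.67 for cpg-19. Without replicate 3 of 19Q over GFP only the indirect values were 4.37 and -4.15. Set in order, C48E7.6 was highest in 128Q cells, and cpg-19 was lowest in 128Q cells. The places of 19Q and GFP-only cells in that order were not resolved for either gene, since each mean in 19Q over GFP only was smaller than its SD.

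**Figure D2:**
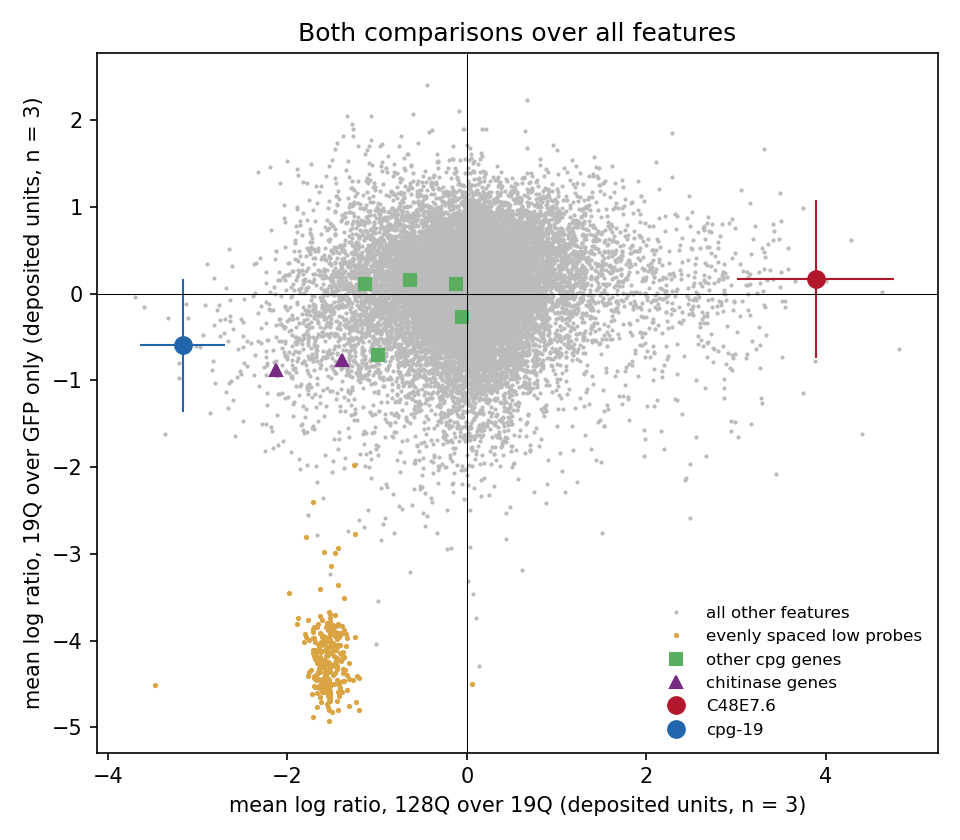
Mean log ratio in 128Q over 19Q (x axis) against the mean in 19Q over GFP only (y axis), both in deposited units with n = 3, for every feature with all 6 values. Bars on C48E7.6 (red) and cpg-19 (blue) are ± SD, green squares are other cpg genes, purple triangles chitinase genes and yellow points the evenly spaced low probes. C48E7.6 lies at 3.89 and cpg-19 at -3.17 on the x axis, with bars that cross 0 on the y axis for C48E7.6 and for cpg-19.

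The rest of the cpg class was compared to see whether its genes moved as cpg-19 did. Of 12 other genes of the class in the gene table, 5 have a named probe, and each has 1: cpg-18, cpg-20, cpg-22, cpg-23 and cpg-24. None of the 5 passed the test in 128Q over 19Q, where limma called 2.8% of all features (616 of 22033) at a Benjamini-Hochberg adjusted p under 0.01, 1.63% as higher and 1.17% as lower. At an unadjusted p under 0.05, where limma counted 25% of features (5517 of 22033), 2 of the 5 passed, cpg-22 and cpg-24. All 5 means were below 0, while 54.35% of all features had a mean above 0. The median of the 5 was -0.64 beside a median of 0.05 over all features.

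Of the 5, cpg-22 had the lowest mean, with log ratios of -1.50, -0.49 and -1.42 and a mean of -1.14 ± 0.56 (SD, n = 3, adjusted p = 0.0752 from limma). cpg-24 had -0.07, -0.85 and -2.03, a mean of -0.99 ± 0.99 (SD, n = 3, adjusted p = 0.134 from limma), so its spread was as large as its mean. cpg-20 had 0.19, -0.64 and -1.46, with a mean of -0.64 ± 0.83 (SD, n = 3). The 3 genes were below 0 in replicates 2 and 3, and cpg-20 was above 0 in replicate 1. cpg-18 and cpg-23 had means of -0.05 ± 0.16 and -0.12 ± 0.51 (SD, n = 3 each) and both changed sign between replicates. In each replicate of 128Q over 19Q cpg-19 lay below the lowest of the other 5, with differences of -1.45, -1.99 and -1.67 in replicates 1 to 3, a distance that the choice of cpg-19 for its low ratios favours.

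In 19Q over GFP only none of the 5 passed the test either, in a comparison where limma called 0% of features, 0 of 21897. At an unadjusted p under 0.05 limma counted 4825 features there (22%), and none of the 5 cpg genes was among them. Their means lay between -0.71 for cpg-24 and 0.15 for cpg-20, with a median of 0.11. cpg-18 and cpg-24 were below 0 in all 3 replicates, cpg-24 with -0.79, -0.45 and -0.88. cpg-19 lay within the range of the other 5 in replicates 1 and 3 and below it in replicate 2.

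**Figure D3:**
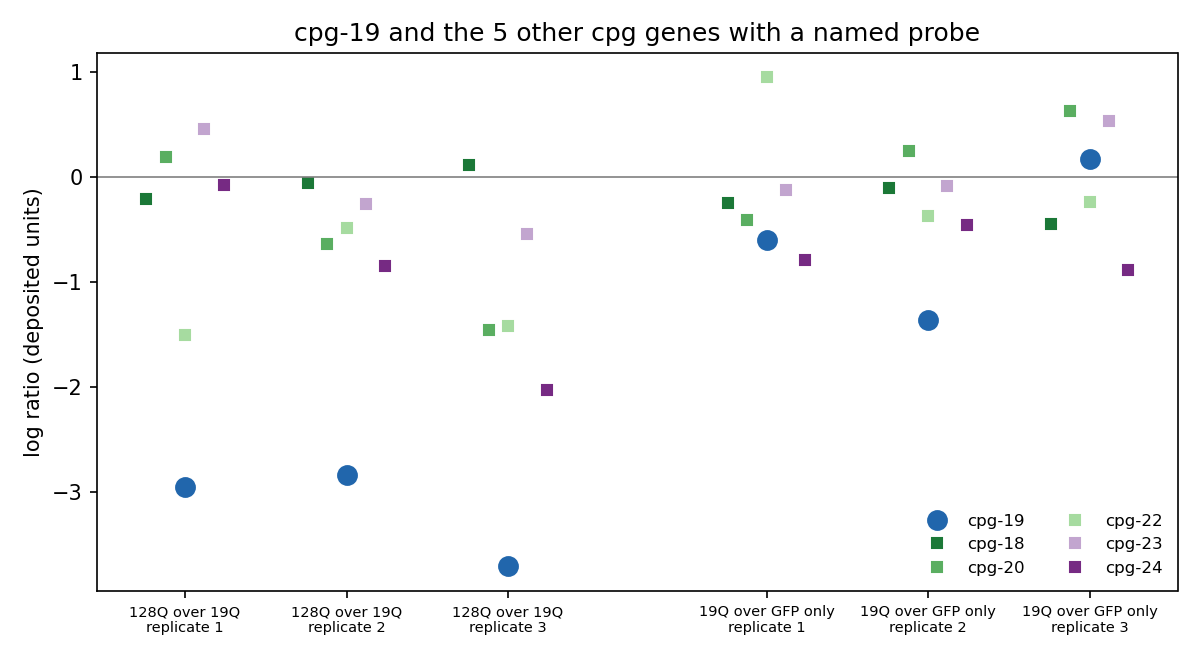
Log ratio (y axis, deposited units) of cpg-19 (blue circles) and of cpg-18, cpg-20, cpg-22, cpg-23 and cpg-24 (squares) in each of the 6 sets (x axis). cpg-19 lies below the other 5 genes in all 3 sets of 128Q over 19Q, and among them in replicates 1 and 3 of 19Q over GFP only.

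Chondroitin chains are built by glycosyltransferases and modified by sulfotransferases. Of 14 genes listed for chain synthesis and sulfate supply, only chst-1, a carbohydrate sulfotransferase gene, has a named probe in that annotation, and the other 13 were not analysed here, among them the sqv genes whose enzymes start and extend the chain. Its log ratios were 0.00, -0.05 and -0.20 in 128Q over 19Q and 0.27, 0.26 and -0.02 in 19Q over GFP only. The means were -0.08 ± 0.10 and 0.17 ± 0.16 (SD, n = 3 each), and it did not pass the test in 128Q over 19Q or in 19Q over GFP only (adjusted p = 0.847 and 0.587 from limma). The value of chst-1 says nothing of chain synthesis as a whole. By the study's own test, the paper lists the xylosyltransferase gene sqv-6 as lower in 128Q than in 19Q cells. It also lists sqv-6 as lower in 19Q than in GFP-only cells. No gene of the lists for heparan sulfate modification (9 genes), heparan sulfate proteoglycan cores (6), basement membrane and matrix receptors (24) or eggshell and chitin (8), and no chitinase-like chil gene (26), has a named probe, so these were not analysed here.

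Chitinases, which cut chitin, the polymer of the eggshell layer that lies outside the chondroitin proteoglycan layer, have 2 named genes of 6. Transcripts of cht-6 were lower in 128Q than in 19Q cells, with log ratios of -2.04, -2.16 and -2.19 and a mean of -2.13 ± 0.08 (SD, n = 3, adjusted p = 0.00400 from limma). cht-5 had -1.14, -1.34 and -1.70, a mean of -1.39 ± 0.28 (SD, n = 3; limma, adjusted p = 0.0239), and did not pass. Both genes were below 0 in all 6 sets, with means of -0.88 ± 0.56 for cht-6 and -0.77 ± 0.66 for cht-5 in 19Q over GFP only (SD, n = 3 each, adjusted p = 0.145 and 0.190 from limma). Of the 2 genes only cht-6 was called, beside 1.17% of all features called as lower in 128Q over 19Q. The call for cht-6 was lost without any 1 replicate of 128Q over 19Q, as was every call of that comparison. Its adjusted p from limma ran between 0.00256 and 0.0402 over the settings tried. A call for cht-5 was gained without replicate 3 of 19Q over GFP only and where the sets were centred and scaled. The adjusted p of cht-5 from limma ran between 0.00454 and 0.160.

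Position on the chromosome was not used to choose either gene, so the nearest named genes were examined. For C48E7.6, 1 of 10 such neighbours passed the test in 128Q over 19Q, as lower and so in the opposite direction to C48E7.6, beside 2.8% of all features called and 1.17% called as lower. This was C48E7.1, with log ratios of -1.39, -1.54 and -2.07 and a mean of -1.66 ± 0.36 (SD, n = 3, adjusted p = 0.00759 from limma), with 5 protein-coding genes between it and C48E7.6. It was also below 0 in every set of 19Q over GFP only, with -0.85, -0.80 and -1.49. The mean there was -1.05 ± 0.38 (SD, n = 3, adjusted p = 0.127 from limma), and it did not pass. The call in 128Q over 19Q was lost without any 1 replicate of that comparison, as was every call there. It was also lost without replicate 1 or 2 of 19Q over GFP only and in a separate fit. The adjusted p from limma ran between 0.00210 and 0.0640 for 128Q over 19Q. C48E7.7, the gene next to C48E7.6 with none between, had 0.03, -0.08 and -0.56, a mean of -0.21 ± 0.31 (SD, n = 3, adjusted p = 0.705 from limma).

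The other named neighbours of C48E7.6 did not pass. T05E7.4, on the same side as C48E7.7 with 14 protein-coding genes between, had the highest mean of the 10, 1.66 ± 0.40 (SD, n = 3, adjusted p = 0.0133 from limma), with 1.70, 2.04 and 1.25. T08B2.4 had -1.80, -1.26 and -1.05, a mean of -1.37 ± 0.38 (SD, n = 3, adjusted p = 0.0204 from limma). By the study's own test, the paper lists T08B2.4 as lower in 128Q than in 19Q cells. T08B2.11, T05E7.1, C10G11.8, C10G11.6, C10G11.10 and C10G11.1 lay between -0.34 and 0.49. The median of the 10 means was 0.12, beside 0.05 over all features, and none of the 10 reached 2.90, the lowest replicate of C48E7.6, in any set of 128Q over 19Q. The choice of C48E7.6 for its high ratios favours that distance.

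Around cpg-19, 0 of 10 named neighbours passed the limma test used here, beside 2.8% of all features. By the study's own test, the paper lists F22H10.2, among these neighbours, as lower in 128Q than in 19Q cells. An unadjusted p under 0.05 from limma was found for 2 of the 10, F43B10.1 and F22H10.2, a share near the 25% of all features. C06G1.1, the adjacent gene, had -0.59, -0.07 and -1.09 in 128Q over 19Q, a mean of -0.58 ± 0.51 (SD, n = 3; limma, adjusted p = 0.277). The lowest of the 10 was F22H10.2, with 4 protein-coding genes between it and cpg-19. It had -2.11, -2.80 and -0.81, a mean of -1.91 ± 1.01 (SD, n = 3; limma, adjusted p = 0.0953), and -0.80, -2.76 and 0.35 in 19Q over GFP only. F43B10.1, between these genes and measured by 2 probes, had a mean of 0.62 ± 0.18 (SD, n = 3, adjusted p = 0.0752 from limma). The median of the 10 means was 0.09. In 19Q over GFP only 0 of the 10 neighbours of either gene passed the test, with an unadjusted p under 0.05 from limma for 4 of 10 neighbours of C48E7.6 and 3 of 10 of cpg-19, beside 22% of all features.

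**Figure D4:**
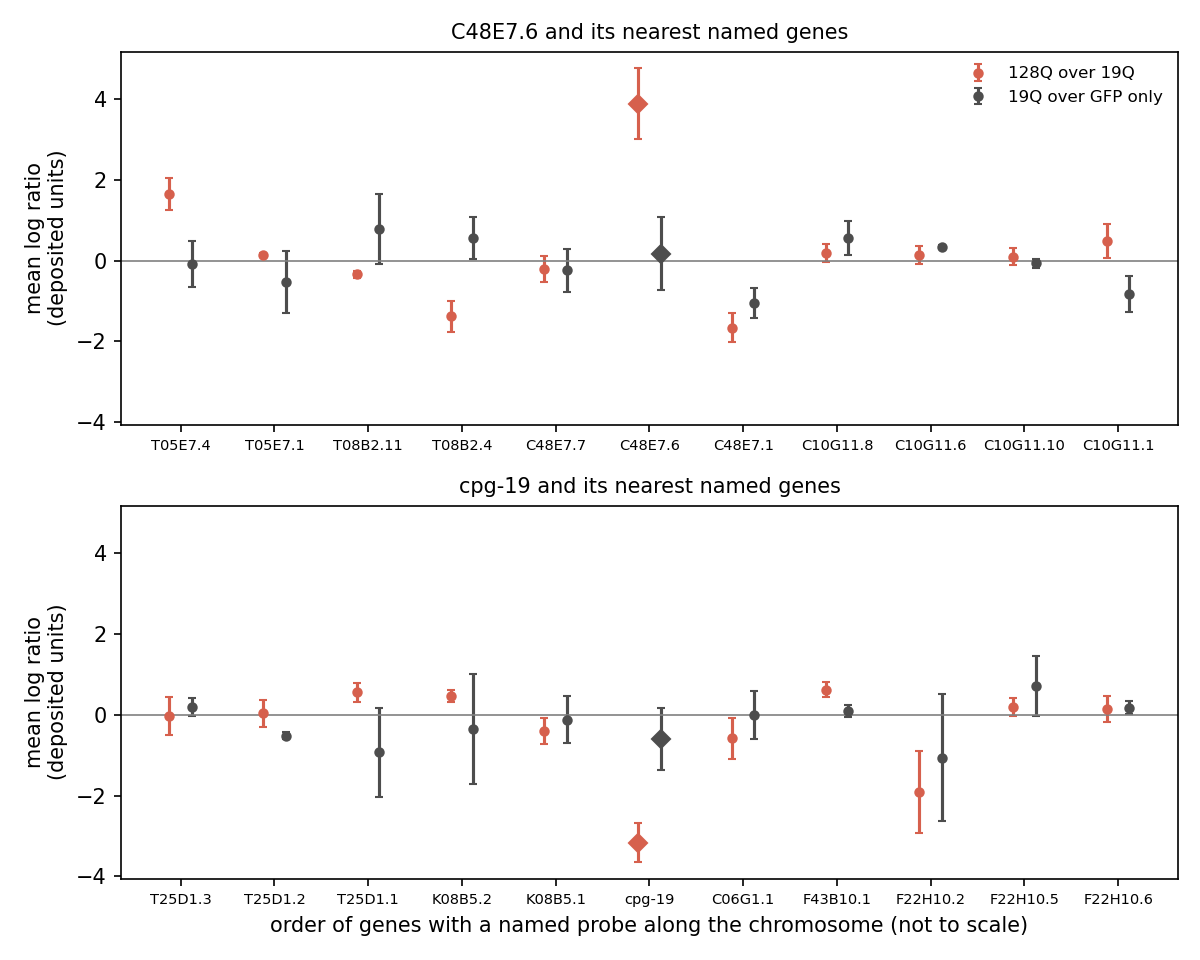
Mean log ratio ± SD (y axis, deposited units, n = 3) in 128Q over 19Q (red) and 19Q over GFP only (dark grey) for C48E7.6 (upper panel) and cpg-19 (lower panel), drawn as diamonds, and the 5 nearest named genes on either side (circles), in chromosome order and not to scale. In 128Q over 19Q, C48E7.6 lies at 3.89 and cpg-19 at -3.17, and the means of the neighbours lie between -1.91 and 1.66. The choice of both genes for their ratios favours that distance.

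The named genes whose 6 ratios were most like those of each gene were ranked by Euclidean distance over the sets after centring and scaling, among 7310 named genes with all 6 values. Since the same ratios chose both genes, this is a description. The gene nearest to C48E7.6 was F13D12.10, at a distance of 1.37 beside a median of 7.20 over all named genes. It had 3.89, 2.85 and 3.17 in 128Q over 19Q and 0.03, 0.64 and -0.59 in 19Q over GFP only. F41G4.8, txt-14, D1086.2 and Y47D7A.2 followed at distances between 1.74 and 1.97. Their means in 128Q over 19Q lay between 3.19 and 3.51 and those in 19Q over GFP only between -0.08 and 0.81.

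For cpg-19 the nearest genes were closer. ZK662.2 was at a distance of 0.68 and F56D2.3 at 0.72, beside a median of 6.31 over all named genes. ZK662.2 had -3.01, -2.77 and -3.16 in 128Q over 19Q and -0.42, -1.17 and -0.25 in 19Q over GFP only, so that it differed from cpg-19 in sign in replicate 3 of 19Q over GFP only. F56D2.3 had the sign of cpg-19 in all 6 sets, with -2.70, -2.50 and -3.62 in 128Q over 19Q and -0.81, -0.92 and 0.29 in 19Q over GFP only. R03C1.1, F20B10.3 and R02F11.1 followed at distances between 0.90 and 1.06. No cpg gene was among the 5 nearest to either gene. C48E7.6 and cpg-19 were 13.2 apart, and 4 of the 7310 named genes were farther than cpg-19 from C48E7.6.

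**Figure D5:**
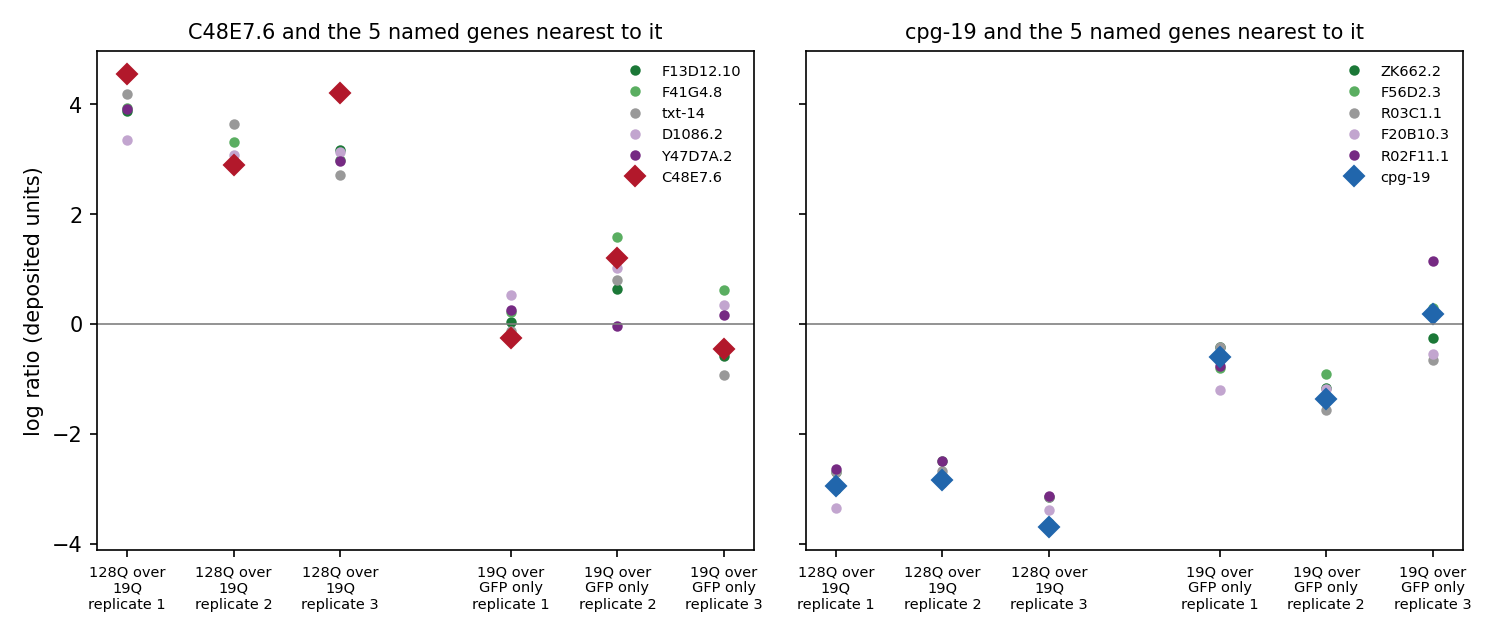
Log ratio (y axis, deposited units) in each of the 6 sets (x axis) of C48E7.6 (left panel, red diamonds) and cpg-19 (right panel, blue diamonds) with the 5 named genes nearest to each by Euclidean distance (circles). In 128Q over 19Q the genes near C48E7.6 lie between 2.71 and 4.19 and those near cpg-19 between -3.62 and -2.50.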

How the data were processed

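The authors amplified RNA of sorted cells linearly, coupled Cy3 or Cy5 to it, and read 2-colour Agilent arrays, with dye swaps, on a GenePix scanner. The authors deposited 6 sets of scores, log ratios of Cy5 over Cy3 with no stated log base. No source used here gives the background correction, the normalization or how dye swaps were merged. Direction followed the dyes in the labels.

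Of 22562 probes, 7718 have 1 symbol, 0 several and 14844 none in the platform annotation; all 7718 matched the WBcel235 gene table by gene ID or symbol. Probes of a gene were averaged, which gave 22321 features. Both comparisons were fitted together with limma 3.58.1 in R 4.3.3 (mean ratio against 0, prior degrees of freedom 3.035), on features with all 3 values. They share an estimate of the spread, so p-values of either comparison also carry the spread of the other. The study's VarMixt test was not used here. Nothing in the labels says that the replicates came from separate cultures, beyond calling them biological replicates; p-values measure the spread between these sets. The fit was also run on simulated data, with known changes put into independent noise of each feature's own spread. Noise shared between the features of a set was not simulated, so that run does not show how the fit behaves on these sets. Precision is limited by 3 sets per comparison, and signal over background is unknown.

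Both genes and all lists were chosen with earlier results of these data known. Text names both genes, all measured cpg genes, up to 3 genes per list and comparison with the lowest p, the 5 nearest patterns and 5 neighbours per side. The gene table gave gene order. Its coordinates are not printed, and sequences were not used here. Alternatives were centring, scaling, single probes, 2 of 3 values, robust moderation, separate fits, a threshold of 0.05, a replicate block, and leaving out low probes or each set.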

Additional observations from a re-analysis of the deposited data

How the results depend on the processing

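The combination of leaving out the low probes and scaling, and all settings for neighbour genes, were chosen after seeing the data. Means of C48E7.6 and cpg-19 moved by less than 1 SD under every setting run. Without 1 replicate, they ranged in 128Q over 19Q from 3.55 to 4.38 for C48E7.6 and from -3.33 to -2.89 for cpg-19, and in 19Q over GFP only from -0.35 to 0.48 and from -0.98 to -0.21. The 616 calls of 128Q versus 19Q became 2313 at an adjusted p under 0.05, 1169 with the low probes left out and scaling, and between 0 and 1472 without 1 set: 0 without any 1 replicate of 128Q over 19Q, and, for 19Q over GFP only, 195 when replicate 1 was left out, 347 for replicate 2 and 1472 for replicate 3. The list genes other than cpg (1 call, cht-6) had 2 calls with centring and scaling, 2 with the low probes also left out, 2 at an adjusted p under 0.05, and 0 to 2 without 1 set. A looser threshold calls more by construction. Leaving out a set of 19Q over GFP only does not change the mean ratios of 128Q over 19Q. It changes those calls only through the shared estimate of the spread and its degrees of freedom. For the remaining settings the cause was not tested. None of the 5 cpg genes other than cpg-19 was called under any setting; cpg-19 itself is described with no test.

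The replicate numbers are not stated to pair the sets. Deviations of same-numbered sets had r = 0.430, -0.130 and 0.335, against -0.0432, -0.0005 and 0.0035 once the low probes were left out. A replicate block gave 204 calls for 128Q versus 19Q, 0 list genes and 0 neighbour genes, so cht-6 and C48E7.1 were no longer called.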
